A study of Mus musculus with 48 samples.

Results

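Klk8, Klk6 and Klk10 are 3 genes of the kallikrein family of secreted serine proteases, and they were described in RNA-sequencing of the mouse hippocampus. They were selected by symbol, as 3 of the 24421 gene rows of the count matrix, because Klk8 had been seen to be lower in basal GABA-CB1-KO mice and in Glu-CB1-KO mice after the open field. Those 2 contrasts are therefore given for the 3 genes as a description and without a test. The 48 libraries, 1 for each male mouse, came from the Cornu Ammonis (CA1, CA2 and CA3 together, with the dentate gyrus removed), and they form 8 groups of line, genotype and state.

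KO mice of the Glu-CB1 line were CB1f/f mice with Cre recombinase driven by nex1 regulatory elements, which deletes the cannabinoid receptor CB1 (gene Cnr1) from glutamatergic neurons. In KO mice of the GABA-CB1 line, Cre was driven by dlx5/6 elements, which deletes it from GABAergic neurons. The deletion is thus limited to 1 neuron class and the other cells of the tissue still carried Cnr1. Per the paper, the CB1-WT controls were littermates of the KO mice. The Glu-CB1 line gave 5 CB1-WT and 7 KO libraries in the basal state and 5 CB1-WT and 7 KO libraries after 5 min in an open field arena. The GABA-CB1 line gave 6 and 6 in the basal state and 7 CB1-WT and 5 KO after the open field. Per the paper, the tissue of the open field mice was isolated with a delay after the exposure, not at its end. By the labels the mice were 8 weeks old. Each library is a mixture of all cells in the tissue, so fewer cells of a type and less RNA per cell cannot be told apart.

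Kallikreins are made as inactive precursors, are cut to become active outside the cell, and are held in check by serpins and other inhibitors. Klk8 encodes neuropsin, a trypsin-like protease of hippocampal neurons known from work on long-term potentiation, which cleaves adhesion and signalling proteins at the synapse such as L1CAM, EPHB2 and neuregulin-1. Klk6 encodes neurosin, a trypsin-like protease that is abundant in oligodendrocytes and can cut myelin proteins and protease-activated receptors. Klk10 encodes a kallikrein best known from epithelia, whose role in the brain is little described.

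The 3 genes lie on the + strand of chromosome 7 (mm10) within 1 cluster. Klk10 spans 43781054 to 43785410, Klk8 43797577 to 43803822 in 5 exons, and Klk6 43824544 to 43832027. GENCODE vM21 lists each as protein coding, with 1 transcript for Klk10, 3 for Klk8 and 4 for Klk6. To show where transcription of each gene begins, the 100 bases before each RefSeq start site (GRCm38.p6, which is mm10, + strand, 5′ to 3′) are printed here, with the 7 letters GTTAAAA in capitals wherever they occur. The windows are chr7:43797477-43797576 for Klk8, chr7:43780954-43781053 for Klk10, and chr7:43824444-43824543 and chr7:43825350-43825449 for the 2 starts of Klk6.
Klk8: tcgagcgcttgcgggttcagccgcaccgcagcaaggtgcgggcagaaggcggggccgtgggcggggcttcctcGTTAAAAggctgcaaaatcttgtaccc
Klk10: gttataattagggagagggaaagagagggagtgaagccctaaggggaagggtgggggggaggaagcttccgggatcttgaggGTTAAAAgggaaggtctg
Klk6, first start: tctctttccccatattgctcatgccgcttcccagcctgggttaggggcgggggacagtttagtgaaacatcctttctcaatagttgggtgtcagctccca
Klk6, second start: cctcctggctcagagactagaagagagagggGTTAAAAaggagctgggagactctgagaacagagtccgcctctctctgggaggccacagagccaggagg

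The letters GTTAAAA were picked after these sequences had been read. They began 27 bases before the start of Klk8, 18 bases before that of Klk10 and 69 bases before the second start of Klk6, and they were absent from the window of the first Klk6 start. Of 32851 promoters in the RefSeq table, 3.03% held GTTAAAA on either strand within the 250 bases before the start. The GC-box letters GGGCGG were found on the + strand before Klk8, 42 bases from the start, and before both starts of Klk6, and 32.7% of all promoters hold them. The TATA-box letters TATAAA, the cAMP response element TGACGTCA, the E-box letters CACGTG and the AP-1 site TGANTCA, searched on both strands over the same 250 bases, were not found before any of the 4 starts. They occur in 12.4%, 1.55%, 6.02% and 6.75% of all promoters, respectively.

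Counts were summed from reads on the exons of each gene. Of the 1322 exon bases counted for Klk8, 382 in its first exon (43797577 to 43797958, 28.9%) are also covered in GENCODE by an exon of 2310002F09Rik, a non-coding gene on the other strand. The model of 2310002F09Rik used for counting does not reach Klk8. Counting used strand, but whether the libraries mark strand is not given in the sources used here, so reads of the 2 genes over that stretch cannot be told apart. The log2 fold change of 2310002F09Rik itself, KO against CB1-WT, was -0.25 in basal GABA-CB1 and -0.25 in open field Glu-CB1 mice, not called in either, and its part in the Klk8 values was not tested. Of the 50-base words in GENCODE transcripts, 333 of 1536 in Klk8 recur in another gene, all of them in 2310002F09Rik, against 0 of 1513 in Klk6 and 0 of 1324 in Klk10.

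The libraries held 25892654 to 34091080 counted reads each, with a median of 30975561. The deleted gene Cnr1 separated KO from CB1-WT libraries in both lines and states without overlap. After the open field, for example, GABA-CB1-KO mice had 101 to 156 CPM of it (CPM, reads of a gene scaled to library size) and their controls 337 to 393 CPM. Markers of the labelled tissue were present in all 48 libraries, with a summed level of 691 to 963 CPM for 7 CA1 pyramidal markers and 395 to 565 CPM for 7 CA3 and CA2 markers. The 6 dentate granule markers summed to 91 to 294 CPM and 4 thalamus markers to 77 to 121 CPM. The 4 choroid plexus markers ran from 39 to 4040 CPM, and the highest value was in a GABA-CB1-KO library after the open field in which Klk8 stood at 14.5 CPM.

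Klk8 had the highest level of the 27 kallikreins in the matrix. Its level, normalised by TMM over all libraries, averaged 15.3 CPM (SD 2.23, n = 48) and ran from 10.7 to 19.9 CPM, on 309 to 639 reads per library. Per kilobase of exon its level was 11.6 CPM, higher than that of 71.8% of the genes with a count. Klk10 averaged 1.39 CPM (0.648 to 2.58, on 17 to 88 reads) and Klk6 0.612 CPM (0.290 to 1.17, on 8 to 37 reads). Per kilobase of exon, Klk8 stood 11.2-fold above Klk10 and 26.6-fold above Klk6. Mice of the same group differed by a coefficient of variation of 11.2% for Klk8, 26.2% for Klk10 and 33.4% for Klk6, where counting error alone would give 4.62%, 15.3% and 23.1%. Hence for Klk6, and to a lesser degree Klk10, small differences were not detectable at this depth.

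**Figure D1:**
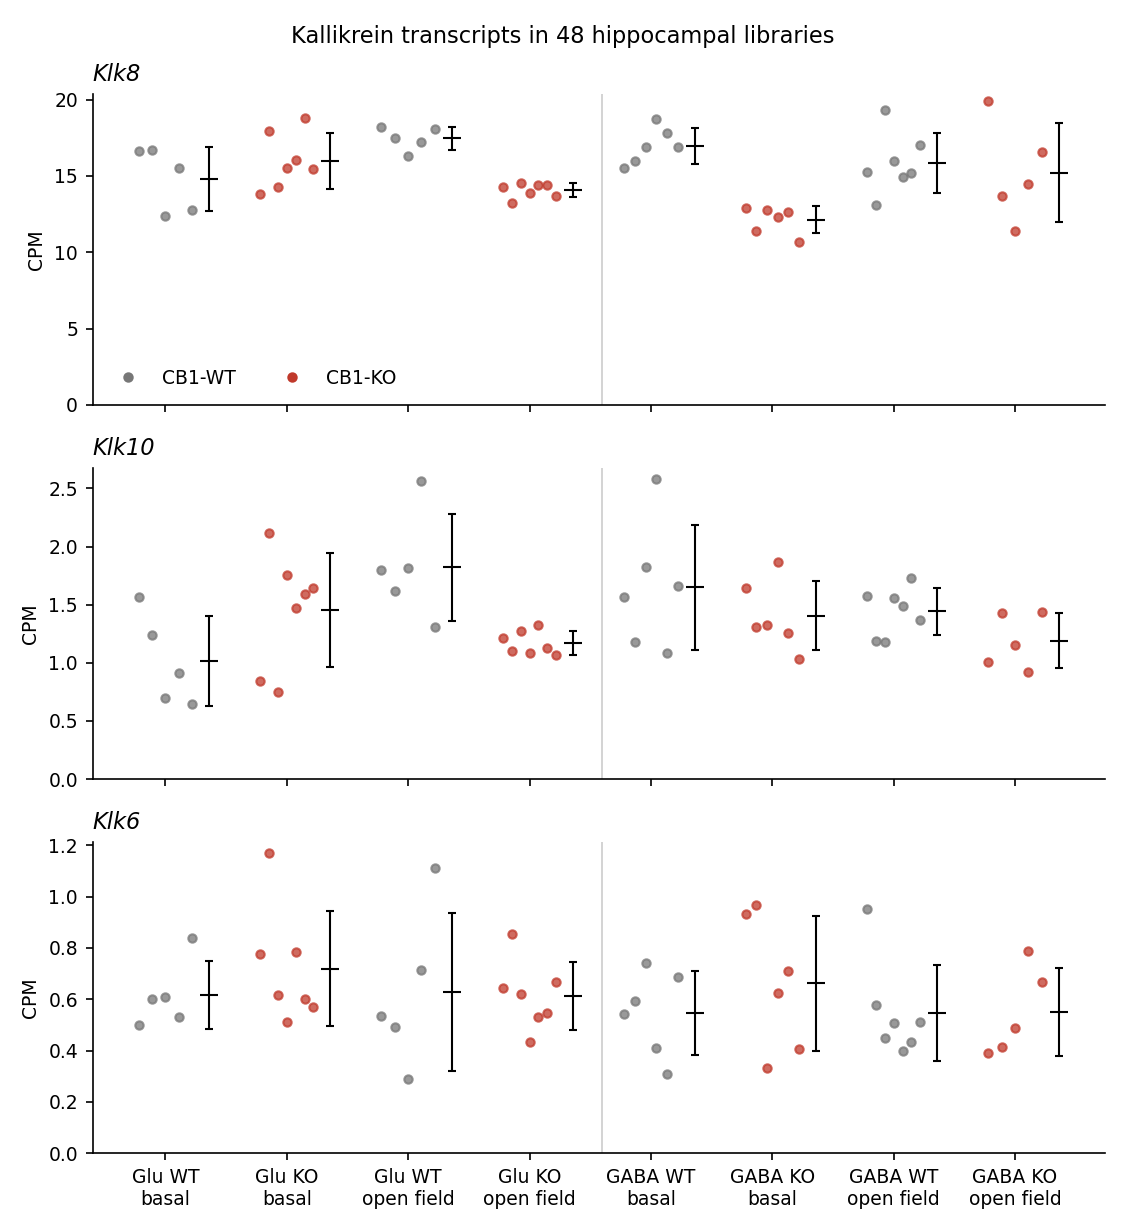
Level in CPM (y axis, from 0) of Klk8, Klk10 and Klk6 in the 8 groups of line, genotype and state (x axis). Each point is 1 mouse, and the black bar is the group mean ± SD (n = 5 to 7). Klk8 ran from 10.7 to 12.9 CPM in basal GABA-CB1-KO mice, below all 6 of their CB1-WT controls, while the Klk10 and Klk6 values of the same mice overlapped between genotypes.

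The other kallikreins were close to absent. Of 27 rows named as Klk genes, 4 (Klk8, Klk10, Klk7 and Klk6) had enough reads to be tested. Klk7, a chymotrypsin-like kallikrein known from the skin, lies between Klk8 and Klk6 and averaged 0.700 CPM, or 0.401 CPM per kilobase. Klk9 had a read in all 48 libraries but averaged 0.150 CPM (1 to 9 reads). Members of the Klk1b group are near-identical copies, so their counts, of at most 5 reads in a library, are uncertain. Within 250 kb of either end of Klk8, 27 genes are listed, 19 of them kallikreins, and 9 were tested. None of those 9 was called in the comparisons without a part in the choice, where 0.0198% to 1.8% of all genes were called. In the 2 contrasts that chose Klk8, with 0.245% and 0.272% of all genes called, no neighbour of it was called. At these shares that is no result about the neighbours.

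**Figure D2:**
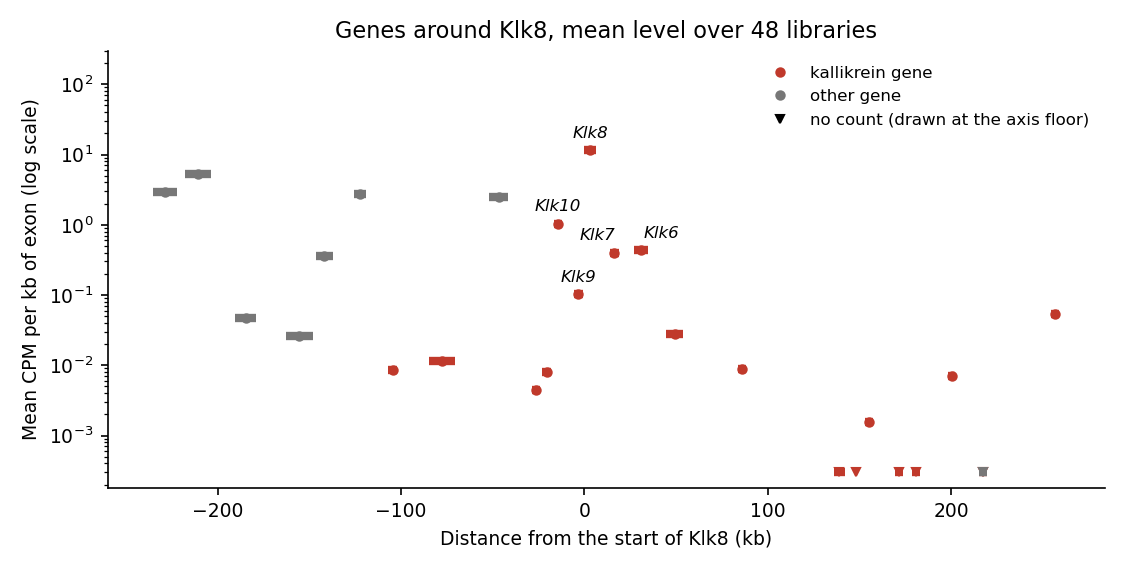
Mean level over 48 libraries, in CPM per kilobase of exon (y axis, log scale), of the genes around Klk8 against their distance from its start in kb (x axis). Bars span the genes, red marks kallikreins, grey other genes, and triangles at the floor mark genes without a read. Klk8 stood highest at 11.6 CPM per kb, above Klk10 at 1.03 and Klk6 at 0.434.

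In the basal state the GABA-CB1-KO mice had less Klk8, and the groups did not overlap. The 6 KO libraries ran from 10.7 CPM to 12.9 CPM with a median of 12.5 CPM, and the 6 CB1-WT libraries from 15.5 to 18.7 CPM with a median of 16.9 CPM. The means were 12.1 ± 0.888 (SD, n = 6) and 16.96 ± 1.19 (SD, n = 6), a log2 fold change of -0.49 (SE 0.06), or 1.40-fold lower. Leaving out any 1 library gave -0.51 to -0.45. Of 15082 genes tested in this contrast 0.206% were called lower, and 0.471% had KO libraries that all lay below every CB1-WT library. Since Klk8 was chosen for this contrast, nothing is read from its place among them. Klk8 was 5th by p among the 31 genes called lower. The last gene inside the threshold was Lgals1 at -0.44, and the first outside it Adgrf4 at -0.47.

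The numbers in the sample labels of each line fall in a lower and a higher range, and the labels do not say what the numbers mean. In the lower range 2 KO mice had 11.4 and 12.9 CPM of Klk8 against 15.5 to 17.8 CPM in 4 CB1-WT mice. In the higher range 4 KO mice had 10.7 to 12.8 CPM against 16.9 and 18.7 CPM in 2 CB1-WT mice. These are the libraries that chose Klk8, so nothing is read from the split.

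Klk10 and Klk6 did not share that separation. Klk10 ran from 1.04 to 1.87 CPM (median 1.32) in basal GABA-CB1-KO mice and from 1.08 to 2.58 CPM (median 1.62) in CB1-WT mice, a log2 fold change of -0.23 (SE 0.21) that was -0.06 without CB1-WT replicate 4. Klk6 ran from 0.331 to 0.967 CPM (median 0.666) in KO mice and from 0.309 to 0.743 CPM (median 0.567) in CB1-WT mice, a log2 fold change of 0.30 (SE 0.27). For both genes the groups overlapped and the fold change was close in size to its standard error.

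After the open field Klk8 was lower in Glu-CB1-KO mice, again without overlap. The 7 KO libraries lay between 13.3 and 14.5 CPM with a median of 14.3 CPM. The 5 CB1-WT libraries had 16.3, 17.2, 17.5, 18.1 and 18.2 CPM. The KO group was the most uniform of the 8, with a coefficient of variation of 3.32%, below the 4.62% that counting error gives at the mean level. The log2 fold change was -0.31 (SE 0.05), or 1.24-fold lower, and leaving out any 1 library gave -0.34 to -0.30. In this contrast 0.126% of 15078 genes were called lower and 0.285% had all KO libraries below every CB1-WT library. Klk8 was 6th by p of the 19 called lower. Ano3 at -0.22 was the last inside the threshold and Ackr2 at -0.72 the first outside. In the lower range of label numbers 6 KO mice (13.3 to 14.5 CPM) stood against 3 CB1-WT mice (17.5 to 18.2 CPM), and in the higher range 1 KO mouse (13.7 CPM) against 2 CB1-WT mice (16.3 and 17.2 CPM). These libraries too chose Klk8, so nothing is read from its place among the called genes or from the split.

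In the same mice Klk10 had 1.07 to 1.33 CPM (median 1.13) in the 7 KO libraries and 1.31, 1.61, 1.80, 1.81 and 2.57 CPM in the 5 CB1-WT libraries. All but 1 of the KO libraries lay below every CB1-WT library, and the log2 fold change was -0.64 (SE 0.15). Klk6 had 0.433 to 0.855 CPM (median 0.620) in KO mice and 0.290, 0.491, 0.536, 0.714 and 1.11 CPM in CB1-WT mice, a log2 fold change of -0.04 (SE 0.27) that ran from -0.21 to 0.26 when 1 library was left out. Klk8 thus stood lower in the Glu-CB1-KO mice without overlap. Klk10 stood lower with overlap, and Klk6 spread around the same level in both genotypes. The Klk10 mean of CB1-WT mice of this line was 1.82 CPM here and 1.01 CPM in the basal state, the highest and the lowest of the 8 groups.

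The other 4 comparisons had no part in the choice of the genes, though the 2 open field responses include libraries of the contrasts that chose Klk8. None of the 3 genes was called in these 4 comparisons by the quasi-likelihood test of edgeR, with p adjusted after Benjamini-Hochberg over all genes. For the members that makes 0 calls at an adjusted p under 0.05 and 0 at an unadjusted p under 0.05 in these 4 comparisons. The share of all genes at the unadjusted threshold is not given here. DESeq2 made no call either. It gave no adjusted p for Klk10 and Klk6 in open field GABA-CB1 mice or for Klk6 in the response of the GABA-CB1 line. The background by edgeR was low in the genotype comparisons, with 0.0198% of 15138 genes called in basal Glu-CB1 mice and 0.0199% of 15097 in GABA-CB1 mice after the open field. DESeq2 called more genes in both, as given at the end. In response to the open field 1.8% of 15355 genes were called in mice of the Glu-CB1 line, against 0.963% of 15374 in the other line.

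In basal Glu-CB1 mice Klk8 had 12.4, 12.8, 15.5, 16.7 and 16.7 CPM in CB1-WT mice and 13.8 to 18.8 CPM (median 15.5) in KO mice. The groups overlapped, and the log2 fold change was 0.11 (SE 0.09, 95% interval -0.10 to 0.32, adjusted p = 0.999 by edgeR). Klk10 had 0.648, 0.698, 0.915, 1.24 and 1.57 CPM in CB1-WT mice and 0.752 to 2.12 CPM (median 1.596) in KO mice, with 4 of 7 KO libraries above every CB1-WT library. Its log2 fold change of 0.53 (SE 0.27, 95% interval -0.08 to 1.14) did not pass (edgeR, adjusted p = 0.999). Klk6 differed by 0.23 (SE 0.22, adjusted p = 0.999 by edgeR), and by 0.07 without KO replicate 2.

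In GABA-CB1 mice after the open field Klk8 had 11.4, 13.7, 14.5, 16.6 and 19.9 CPM in KO mice and 13.1 to 19.3 CPM (median 15.3) in CB1-WT mice. The log2 fold change was -0.06 (SE 0.12, 95% interval -0.32 to 0.20, adjusted p = 0.842 by edgeR). This KO group was the most variable of the 8, with a coefficient of variation of 21.2%, and its 5 libraries spanned most of the range of all 48. The library at 19.9 CPM, replicate 1, also stood apart in other genes that were lower in basal GABA-CB1-KO mice. It had 81.6 CPM of the CA3 and CA2 marker Bok against 37.9 to 41.7 CPM in the other 4, and 43.3 CPM of the protease gene Prss23 against 15.3 to 19.4 CPM. Without that library the Klk8 difference was -0.18 (adjusted p = 0.485 by edgeR), and without replicate 3, the library at 11.4 CPM, it was 0.02 (adjusted p = 0.954 by edgeR). Klk10 differed by -0.28 (SE 0.15, adjusted p = 0.433 by edgeR) and Klk6 by -0.01 (SE 0.25, adjusted p = 0.995 by edgeR).

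The exposure to the open field, averaged over genotypes, left no called difference in the 3 genes. For Klk8 this average joins genotypes whose means moved in opposite directions. In the Glu-CB1 line the mean went from 14.8 to 17.5 CPM in CB1-WT mice and from 15.98 to 14.1 CPM in KO mice. In the GABA-CB1 line it went from 16.96 to 15.8 CPM in CB1-WT mice and from 12.1 to 15.2 CPM in KO mice. These means include the groups that chose Klk8, and the response within each genotype was not tested. For Klk8 the log2 fold change was -0.01 (SE 0.07, 95% interval -0.15 to 0.13, adjusted p = 0.980 by edgeR) over the 24 mice of the Glu-CB1 line and 0.09 (SE 0.08, 95% interval -0.07 to 0.26, adjusted p = 0.710 by edgeR) over those of the GABA-CB1 line. Klk10 had 0.17 (SE 0.19, adjusted p = 0.785 by edgeR) and -0.22 (SE 0.13, adjusted p = 0.541 by edgeR). Klk6 had -0.12 (SE 0.17, adjusted p = 0.842 by edgeR) and -0.13 (SE 0.19, adjusted p = 0.871 by edgeR). The difference of the response between the lines was tested over all 48 libraries and was 0.49 for Klk10, -0.09 for Klk8 and 0.05 for Klk6, none of them called (adjusted p = 0.9998 by edgeR in each).

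**Figure D3:**
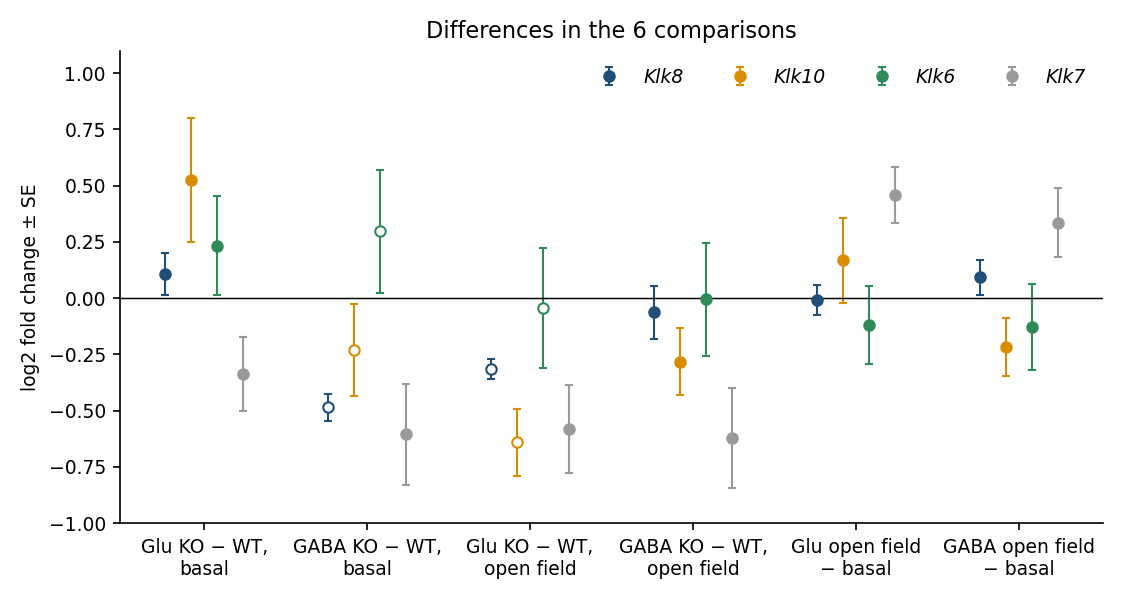
Log2 fold change ± SE (y axis) of Klk8, Klk10, Klk6 and their neighbour Klk7 in the 6 comparisons (x axis). Open symbols mark the 2 contrasts that chose the members, which carry no test, and filled symbols mark tested values, of which none was called. Klk8 stood at -0.49 and -0.31 in the contrasts that chose it and within 0.11 of 0 in the other 4.

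Ordered by mean level, Klk8 was highest in CB1-WT mice of the Glu-CB1 line after the open field (17.5 ± 0.764 CPM) and in basal CB1-WT mice of the GABA-CB1 line (16.96 ± 1.19). Basal Glu-CB1-KO mice (15.98 ± 1.83) followed, then open field GABA-CB1 mice of CB1-WT (15.8 ± 1.94) and KO genotype (15.2 ± 3.23), basal Glu-CB1 CB1-WT mice (14.8 ± 2.10) and open field Glu-CB1-KO mice (14.1 ± 0.467). Basal GABA-CB1-KO mice came last (12.1 ± 0.888, all ± SD). Only the last step exceeded the larger SD of the 2 neighbours, and the top group was 1.44-fold above the bottom one. The last step lies between the 2 KO groups in which Klk8 was chosen as lower. The top 2 groups are the CB1-WT controls of those groups, so nothing is read from the order of these 4 groups. CB1-WT mice, which carry no deletion, thus ranged from 14.8 to 17.5 CPM between their 4 groups. Klk10 ran from 1.82 ± 0.463 CPM in open field CB1-WT mice of the Glu-CB1 line to 1.01 ± 0.388 CPM in basal CB1-WT mice of the same line, and Klk6 from 0.719 ± 0.224 CPM in basal Glu-CB1-KO mice to 0.546 ± 0.188 CPM in open field CB1-WT mice of the GABA-CB1 line. No step between neighbours exceeded the larger SD in either gene.

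Klk7 was no member and is given because it lies between them. Its log2 fold change, KO against CB1-WT, was -0.34 (SE 0.17, adjusted p = 0.999) in basal Glu-CB1, -0.60 (SE 0.22, adjusted p = 0.510) in basal GABA-CB1, -0.58 (SE 0.19, adjusted p = 0.406) in open field Glu-CB1 and -0.62 (SE 0.22, adjusted p = 0.285) in open field GABA-CB1 mice, by edgeR's quasi-likelihood test. None of these differences was called, and the level rested on 9 to 38 reads. Its response to the open field was 0.46 (SE 0.13) in Glu-CB1 mice and 0.34 (SE 0.15) in GABA-CB1 mice, with adjusted p = 0.057 and 0.376 by edgeR.

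To find genes that moved with each member from mouse to mouse, log2 CPM values were centred on the mean of each group, so that differences between groups played no part, and correlated over the 48 libraries with each of 15569 other genes. Klk8 and Lrrc10b, a gene on chromosome 19 coding for a leucine-rich repeat protein, had the highest likeness, with Pearson's r of 0.85 (Spearman's rho 0.79). Hcrtr1, the receptor of orexin A, followed at 0.77, then Ttl (tubulin tyrosine ligase) at 0.73, Cap1 (an actin regulator) at 0.72 and the serpin Serpina3n at 0.70. The lowest values were those of Grb10, an adaptor of insulin signalling, at -0.78, the kainate receptor subunit Grik3 at -0.74 and the kinase Rps6ka2 at -0.73. For comparison, 98% of genes lay between -0.52 and 0.52. Lrrc10b came first also by rank correlation, with RLE in place of TMM factors and without centring, and its r was 0.92 in the Glu-CB1 line, 0.81 in the GABA-CB1 line, and 0.91 and 0.70 in the lower and higher range of label numbers.

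Lrrc10b separated the genotypes in the same 2 contrasts as Klk8. These are the contrasts that chose Klk8, and the 2 genes moved together within groups, so its values are given as a description. In the basal state it had 36.1 to 40.4 CPM in GABA-CB1-KO mice and 41.9 to 54.5 CPM in CB1-WT mice, a log2 fold change of -0.33 (SE 0.06). After the open field it had 43.7 to 45.8 CPM in Glu-CB1-KO mice and 52.8, 53.5, 53.6, 54.9 and 55.0 CPM in CB1-WT mice, a log2 fold change of -0.26 (SE 0.03). In both contrasts no KO library reached the lowest CB1-WT library, as for 0.471% and 0.285% of all genes tested there. In the 4 other comparisons its log2 fold change lay between -0.05 and 0.12 and was not called. Replicate 1 of the open field GABA-CB1-KO mice, which was highest for Klk8, was also highest for Lrrc10b at 66.5 CPM.

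**Figure D4:**
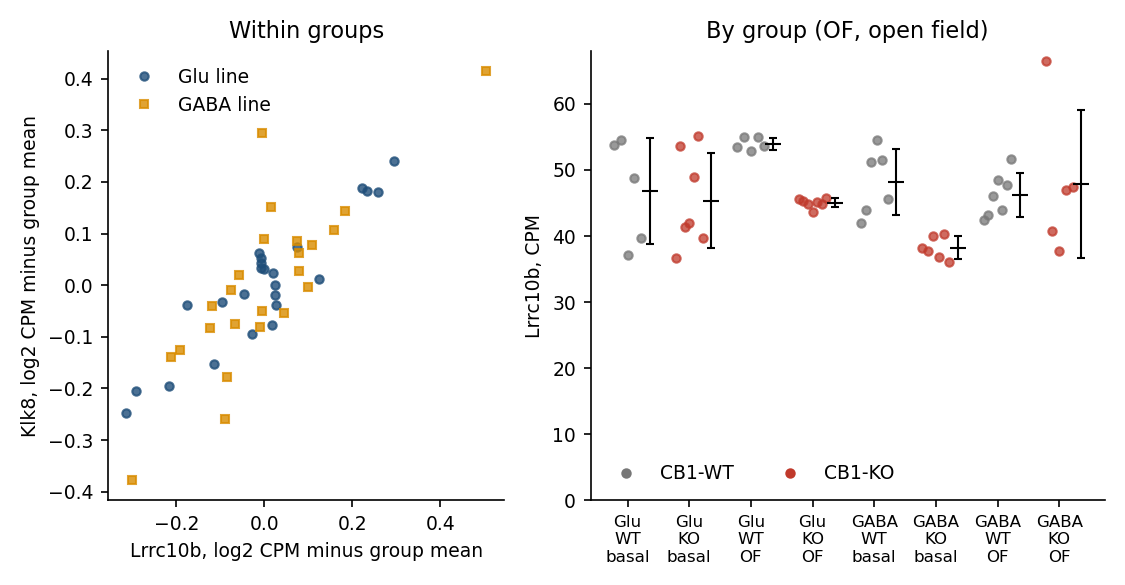
Left, Klk8 against Lrrc10b, each as log2 CPM minus its group mean (both axes), in 48 libraries, with r of 0.85. Right, Lrrc10b level in CPM (y axis, from 0) by group (x axis), 1 point for each mouse and black bars for mean ± SD; basal GABA-CB1-KO and open field Glu-CB1-KO mice lie below all of their CB1-WT controls.

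Klk10 and Klk6 had other companions. For Klk10 the highest likeness was that of the serpin Serpinb9 (r = 0.67), followed by Prdm8, Il16, Ap3b1 and Cd109 (0.63 to 0.60), and the lowest that of Sorcs1, Nudt8 and Cacna2d2 (-0.63, -0.63 and -0.62). For Klk6 it was the metalloprotease Mmp19 (0.55), then Nmb, Serpind1, Foxc1 and Prob1 (0.54 to 0.53), and the lowest were Srfbp1, Gla and Dnmt3l (-0.50 to -0.47). Among the kallikreins themselves r was 0.38 for Klk8 with Klk10, 0.32 for Klk8 with Klk7, -0.07 for Klk8 with Klk6 and 0.01 for Klk6 with Klk10. The Klk8 and Klk10 value was 0.72 over the Glu-CB1 libraries and 0.08 over the GABA-CB1 libraries. These are correlations across libraries that share the tissue dissection and the depth, and Klk10 and Klk6 carry the counting error given above.

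The members were then related to the mean of 11 lists of cell type or region markers, to the first principal component of all libraries and to library size, again centred on group means. That makes 39 relations over 48 libraries, with permutations within groups and Benjamini-Hochberg adjustment. Klk8 was higher in libraries with more of 6 astrocyte markers (r = 0.63, adjusted permutation p = 0.021, rho = 0.55, adjusted permutation p = 0.021, r without the 2 farthest libraries 0.58). The r was 0.48 and 0.71 in the Glu-CB1 and GABA-CB1 lines and 0.73 and 0.36 in the lower and higher range of label numbers. Klk8 was also higher with 5 microglia markers (r = 0.40, adjusted permutation p = 0.029, rho = 0.48, adjusted permutation p = 0.032, r without the 2 farthest 0.44).

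In the opposite direction, Klk8 was lower in libraries with more of 5 subiculum and cortex markers (r = -0.51, adjusted permutation p = 0.029, rho = -0.48, adjusted permutation p = 0.043, r without the 2 farthest -0.42). The r was -0.79 over the Glu-CB1 libraries and -0.29 over the GABA-CB1 libraries. Relations that passed by r and not by rho were Klk8 with the CA3 and CA2 markers (r = 0.46, adjusted permutation p = 0.036, rho = 0.37, adjusted permutation p = 0.149, r without the 2 farthest 0.41) and Klk10 with the subiculum and cortex markers (r = -0.48, adjusted permutation p = 0.036, rho = -0.40, adjusted permutation p = 0.143, r without the 2 farthest -0.45). Klk6, a gene known from oligodendrocytes, had an r of 0.25 with 12 mature oligodendrocyte markers (permutation p = 0.105, adjusted p = 0.328, rho = 0.25). No member passed the threshold against library size or the first principal component.

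**Figure D5:**
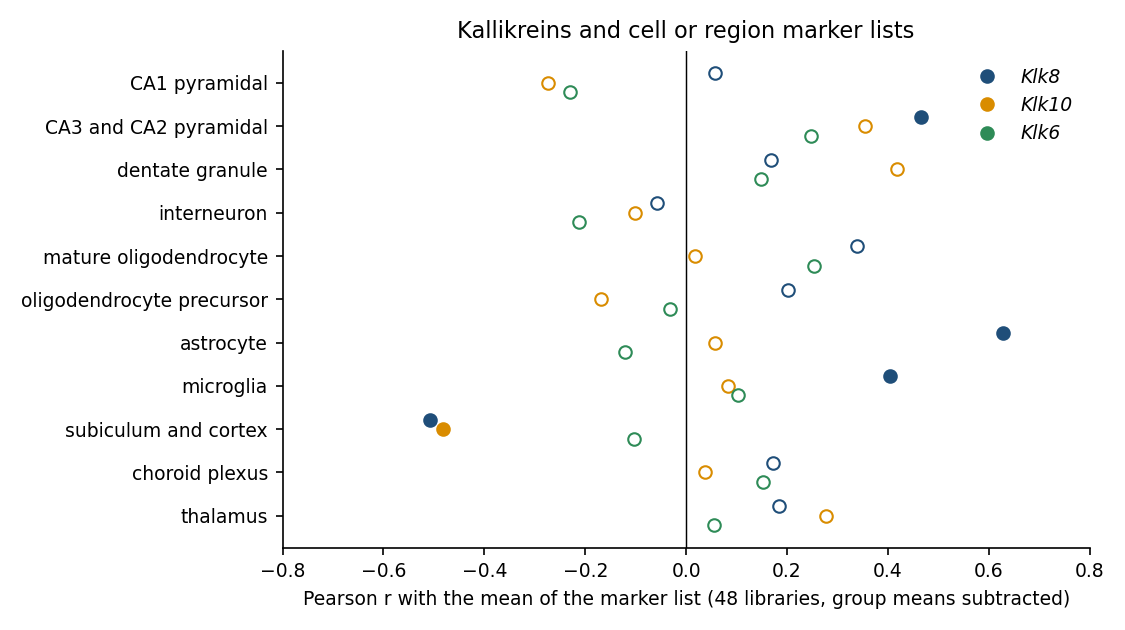
Pearson's r (x axis) of Klk8, Klk10 and Klk6 with the mean of each marker list (y axis) over 48 libraries centred on group means. Filled points passed the permutation test after adjustment, open points did not. Klk8 reached 0.63 with the astrocyte list and -0.51 with the subiculum and cortex list.

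Between the groups in which Klk8 was lowest and their controls, these lists overlapped. The 6 astrocyte markers summed to 4712 to 5395 CPM in basal GABA-CB1-KO mice and 4901 to 5226 CPM in their CB1-WT controls, with a median log2 fold change of -0.04 and no marker called. In open field Glu-CB1-KO mice they summed to 5039 to 5215 CPM against 5012 to 5552 CPM, with a median of -0.06 and none called. Of these 6 markers 5 were lower and 1 higher in each of the 2 contrasts. All 5 microglia markers were lower in both, with medians of -0.04 and -0.05 and none called. The microglia markers summed to 232 to 258 CPM against 244 to 274 CPM in the first contrast. In the second they summed to 236 to 253 CPM against 236 to 292 CPM. The 5 subiculum and cortex markers summed to 100 to 153 CPM against 115 to 183 CPM in the first contrast and to 119 to 156 CPM against 99.7 to 153 CPM in the second, none called. Of them 4 were lower and 1 higher in the first, and 2 were lower and 3 higher in the second. Markers that were called there belonged to other lists. Bok, of the CA3 and CA2 list, was lower in basal GABA-CB1-KO mice (log2 fold change -0.52, SE 0.07, adjusted p = 0.003 by edgeR). In open field Glu-CB1-KO mice Iyd of the same list (-0.56, SE 0.11, adjusted p = 0.046 by edgeR) and Prkcd of the thalamus list (-0.58, SE 0.07, adjusted p = 0.003 by edgeR) were lower, and the interneuron peptide Npy was higher (0.55, SE 0.09, adjusted p = 0.019 by edgeR). Of the 7 CA3 and CA2 markers 4 were higher and 3 lower in basal GABA-CB1-KO mice, with summed levels of 430 to 496 CPM against 438 to 504 CPM. In open field Glu-CB1-KO mice 2 were higher and 5 lower, with 409 to 466.4 CPM against 442 to 558 CPM, and Coch stood at 0.52 (adjusted p = 0.210 by edgeR and 0.046 by DESeq2). Of the 8 interneuron markers 6 were lower in the first contrast, with 929 to 984 CPM against 965 to 1066 CPM, and 7 were higher in the second, with 1003 to 1138 CPM against 857 to 1017 CPM. Sst, the gene of the interneuron peptide somatostatin, stood at -0.28 in the first (adjusted p = 0.127 by edgeR and 0.009 by DESeq2) and 0.44 in the second (adjusted p = 0.057 by edgeR and 0.0007 by DESeq2). All 4 thalamus markers were lower in open field Glu-CB1-KO mice, summing to 77.4 to 95.2 CPM against 94.97 to 118 CPM. Of 12 mature oligodendrocyte markers 11 were higher in the first contrast and 12 lower in the second. Of 6 dentate granule markers 5 and 6 were lower. The 4 oligodendrocyte precursor markers were all lower in the first and all higher in the second. Of 4 choroid plexus markers 4 and 2 were lower, and of 7 CA1 markers 3 and 2. None of these was called. Of the 4 thalamus markers 3 were lower in the first contrast. The part of these genes and lists in the Klk8 values was not tested.

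The listed partners of these proteases, with some related genes, were tested in the same 6 comparisons. In these 0.0198% to 1.8% of all genes were called. Of 20 substrates, receptors and related genes listed, 14 or 15 had enough reads to be tested in each comparison. None was called, which at this background is no result about the list. They had medians of the log2 fold change between -0.01 and 0.05 where the median over all genes was 0.00 in each. At an unadjusted p under 0.05 between 0 and 3 of them passed. The share of all genes at that threshold is not given here, so nothing is read from this count. DESeq2 called 1 of the listed genes, Fkbp5, in the open field response of the Glu-CB1 line (edgeR log2 fold change 0.16, SE 0.05, adjusted p = 0.070, and adjusted p = 0.033 by DESeq2). Fkbp5 is not known as a substrate or receptor of these proteases. The neuropsin substrates L1cam, Ephb2 and Nrg1 had log2 fold changes of 0.10, -0.01 and 0.36 in basal GABA-CB1-KO mice and 0.01, -0.15 and 0.41 in open field Glu-CB1-KO mice. App and Mbp, both abundant, stood at 580 and 277 CPM per kilobase of exon.

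Of 16 inhibitors listed, 15 are in the matrix and 12 were tested. The most abundant by CPM, Serpini1 (neuroserpin), Serpine2 (protease nexin-1) and Serpina3n, had 92.8, 82.3 and 41.5 CPM per kilobase.

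For other extracellular proteases 19 genes were listed, among them Plaur, which encodes a receptor. Of these 12 or 13 were tested in each comparison, and the most abundant by CPM were Htra1, Plat and Prss23 (62.3, 14.9 and 7.30 CPM per kilobase). Plat, which encodes tissue plasminogen activator, rose after the open field in both lines. In the Glu-CB1 line it went from 32.01 to 41.1 CPM over the basal libraries to 38.8 to 43.3 CPM over the open field libraries, a log2 fold change of 0.18 (SE 0.03, adjusted p = 0.006 by edgeR). In the GABA-CB1 line it went from 31.5 to 41.5 CPM to 35.5 to 46.2 CPM, a log2 fold change of 0.18 (SE 0.04, adjusted p = 0.039 by edgeR). Prss23 was lower in basal GABA-CB1-KO mice, with 17.2 to 19.3 CPM (median 17.7) against 19.9 to 25.99 CPM (median 23.97), a log2 fold change of -0.39 (SE 0.06, adjusted p = 0.015 by edgeR). Thus 1 of 12 listed proteases was called lower in this contrast, 1 of the 2 that chose Klk8, where 0.206% of all genes were called lower. Plat was the 1 gene of this list called in each open field response, where 1.8% and 0.963% of all genes were called. In the other genotype comparisons no gene of this list was called.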

How the data were processed

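Groups were taken from the sample labels. The values the authors deposited are raw counts of reads per gene (whole numbers, not normalized). Per their methods, single reads were trimmed with bbduk, aligned to mm10 with STAR 2.6.0a and counted by strand with featureCounts 1.6.2. All 48 columns were used, and exon lengths come from the same file. The library kits amplify cDNA and carry no molecular identifiers, so counting errors are lower limits.

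KO and CB1-WT libraries were compared per line and state, and the open field response per line with genotype as a covariate, by edgeR 4.0.16 (quasi-likelihood test, TMM, filterByExpr defaults, R 4.3.3) on all genes. Genes with a Benjamini-Hochberg adjusted p under 0.05 were called. Standard errors were derived from F, and 95% intervals from these. Levels are CPM, normalized by TMM over 48 libraries. Log2 CPM used a prior count of 2. Correlations used 100000 permutations. The lowest chi-square per degree of freedom between 123 pairs of libraries of a group was 2.93, so no pair counts as a duplicate. Tests were checked on simulated counts.

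The members, the gene lists and the tests were chosen with earlier results of these data known. Named are the members, Cnr1, each listed gene called in any comparison, the 3 most abundant genes of the protease, inhibitor and substrate lists, and per member the 5 genes of highest and 3 of lowest likeness. Klk7, Klk9, 2310002F09Rik and the neuropsin substrates were named in addition, as were the genes at the edges of the thresholds. The 11 marker lists were for CA1, CA3 and CA2, dentate granule cells, interneurons, mature oligodendrocytes, their precursors, astrocytes, microglia, subiculum and cortex, choroid plexus and thalamus. Alternatives were DESeq2 1.42.0, RLE factors, a filter of 1 count in all or of 10 counts per library, a joint fit of the 48 libraries, label number ranges, the replicate number as a block, each library left out and, added after seeing the data, the first principal component as a covariate. Python 3.11.15 was used. Protein sequences were not used here. For 2 genes that the rule would name, values are not reported here.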

Additional observations from a re-analysis of the deposited data

Results flagged for a closer look

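In 24 groups of member and condition, the highest or lowest library was set against the spread of the others by Dixon's criterion, which chance exceeds in about 1 in 20 groups. It was exceeded by 2 libraries, both for Klk6. In basal Glu-CB1-KO mice replicate 2 had 1.17 CPM of Klk6, where the next library had 0.783 CPM. In open field CB1-WT mice of the GABA-CB1 line replicate 1 had 0.95 CPM, where the next had 0.577 CPM. These values rest on 37 and 32 reads. Without the first library the basal Klk6 difference in the Glu-CB1 line was 0.074 in place of 0.23. Without the second library the open field difference of Klk6 in the GABA-CB1 line was 0.20 in place of -0.01, and it was not called either way (adjusted p = 0.660 by edgeR).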

How the results depend on the processing

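The members had 12 tested differences and 6 in the contrasts that chose them, which carry no test. Under other settings, apart from leaving out libraries, 93 values of the first kind kept their direction and 1 did not, and all 46 of the second kind kept it. No member was called in the tested comparisons in the 91 of these values that have an adjusted p, nor in the 216 with 1 library left out. The exception in direction was Klk8 in the open field response of the Glu-CB1 line, which was 0.025 with all 48 libraries in one fit against -0.009. Leaving out 1 library at a time turned the sign 10 times among the tested differences, for Klk8 in GABA-CB1 mice after the open field (-0.18 to 0.022), for Klk6 in the same comparison (-0.17 to 0.20) and for Klk8 in the open field response of the Glu-CB1 line (-0.046 to 0.024). Among the others it turned 3 times, for Klk6 in open field Glu-CB1 mice (-0.21 to 0.26, against -0.04). With at least 10 counts in every library Klk6 was not tested in 4 comparisons. DESeq2 gave no adjusted p for Klk10 and Klk6 in open field GABA-CB1 mice or for Klk6 in the response of the GABA-CB1 line. DESeq2 called 1 gene of the substrate and receptor list, Fkbp5, in the response of the Glu-CB1 line against 0. The r of Klk10 with Serpinb9 was 0.53 without centring. Over 8 other settings the log2 fold change of Lrrc10b ran from -0.35 to -0.33 in basal GABA-CB1 mice. In open field Glu-CB1 mice it ran from -0.27 to -0.26. These contrasts chose Klk8, so calls of Lrrc10b in them are not counted.

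The number of all genes called moved more. DESeq2 called 12, 110, 123, 152, 487 and 270 genes against 3, 37, 41, 3, 276 and 148 by edgeR (basal Glu-CB1, basal GABA-CB1, open field Glu-CB1, open field GABA-CB1, response of the Glu-CB1 and of the GABA-CB1 line). All 48 libraries in one fit called 7 in basal Glu-CB1 and 106 in open field GABA-CB1 mice. With the label number range as a covariate 24 were called in basal GABA-CB1 and 16 in open field Glu-CB1 mice, and with the first principal component 80 in open field Glu-CB1 mice and 231 in the response of the GABA-CB1 line. The causes were not tested. Replicate numbers of the groups do not mark shared litters or days in the labels, and same-numbered libraries correlated between -0.33 and 0.38, so they were not taken as pairs. Over the 8 pairs of groups, each with 5 to 7 shared numbers, 0 to 3 libraries of the first group correlated best with the library of their own number. With the replicate block 3, 8, 3, 1, 255 and 36 genes were called, and the Klk8 difference was -0.48 in basal GABA-CB1 and -0.31 in open field Glu-CB1 mice. Depth limits Klk6 and Klk10, with a counting error of 23.1% and 15.3% at their mean level.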
